A study of Mus musculus with 12 samples.

Results

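The genes described here are 37 type I interferon antiviral effectors, chosen by symbol from a list that covers the IFIT and OAS families, the Mx proteins, RNA sensors, the ISG15 system and other classic interferon-induced genes. Of the 37 symbols, 36 have a row among the 41009 rows of the deposited expression table, and all 36 passed the filter on low values. The symbol Ddx58 has no row. The table lists Rigi, the current symbol for the RNA sensor RIG-I, and its values are given apart and left out of the counts.

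Type I interferons are secreted by cells that sense foreign or misplaced nucleic acid. They bind the receptor formed by Ifnar1 and Ifnar2, and transcription factors such as Stat2 and Irf9 then carry the signal to the interferon-stimulated response elements of effector genes. The products of these genes cut or sequester viral RNA, block translation, trap virus particles or tune the signal itself. In tumours the same set is commonly used as a readout of interferon exposure in both cancer and immune cells.

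The libraries are bulk poly(A) RNA-seq of 4T1 tumours. 4T1 is a mouse breast cancer line of BALB/c origin, here tagged with mCherry and placed in the fat pads of the mammary gland in BALB/c females aged 4 to 5 weeks. Treatment began 7 days after the cells were injected and was given intraperitoneally. The groups are VHH-OD-PD-1-Fc at 4.3 mg/kg, which carries both binding arms, VHH-PD-1-Fc at 2.6 mg/kg, VHH-OD-Fc at 3.5 mg/kg and Ctrl (Ctrl-Fc) at 5 mg/kg, with 3 libraries each. A VHH is a single-domain antibody fragment (nanobody), Fc is an antibody's constant region, and PD-1 is a receptor that restrains T cells. The labels do not spell out OD, and the series title names nanobodies to digoxin-like substances. Nothing in the labels ties the 3 libraries of any group to different mice, so a p-value here reflects library-to-library spread, which may be technical.

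Some features of the libraries bear on every result below. Markers of tumour epithelium were present in every library (summed FPKM of 7 markers 1215 to 3674). Estimated depth was 21.8 to 30.5 M fragments, where M is 1e+06. The sum of all FPKM values (fragments scaled to transcript length and to library depth) was 388142 to 401179 in the 6 libraries with the PD-1 arm, against 327792 to 345596 in the 6 without it, and the ribosomal protein share of it was 10.9% to 13.1% with the arm and 7.19% to 8.83% without it. Comparisons between libraries with and without the PD-1 arm therefore cross a general split, and what the construct did cannot be told apart from whatever else separates the 2 sets. VHH-OD-PD-1-Fc stood apart in that its libraries were nearly alike. Their median SD over the members was 0.066 on the log2 scale, against 0.285 in VHH-PD-1-Fc libraries, 0.145 in VHH-OD-Fc libraries and 0.270 in Ctrl libraries. Squared differences between pairs of VHH-OD-PD-1-Fc libraries were, at the median, 3.72 to 4.54 times those that counting noise alone would give. For pairs in the other groups they were 8.54 to 62.5 times those. The fragment counts behind these ratios were estimated from FPKM. The counts of calls that rest on the VHH-OD-PD-1-Fc libraries are therefore also given with these 3 libraries counted as 1 sample.

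Promoter sequence was available for 25 of the 36 members, from RefSeq on GRCm38.p6, as 300 bases from 250 before to 50 after the annotated start. The core of the interferon-stimulated response element, searched on both strands as GAAA, any 2 bases and GAAA again, was present in 13 of the 25 (52%), against 1079 of 27025 genes in the same table (3.99%). Of the 7 members called higher in VHH-OD-PD-1-Fc libraries than in VHH-PD-1-Fc libraries (below), 3 hold the motif. These 3 are shown first, from 120 bases before the start up to the base before it, 5′ to 3′ on the gene's strand, with every motif base in capitals. The coordinates are chr4:156200819-156200938 for Isg15, chr5:120907526-120907645 for Oas1a and chr5:120887614-120887733 for Oas1g, all on the minus strand.
Isg15: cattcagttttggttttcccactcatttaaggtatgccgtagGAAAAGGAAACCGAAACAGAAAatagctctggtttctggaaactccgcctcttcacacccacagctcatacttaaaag
Oas1a: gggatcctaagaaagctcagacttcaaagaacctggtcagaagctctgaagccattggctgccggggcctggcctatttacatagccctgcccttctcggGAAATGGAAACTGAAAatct
Oas1g: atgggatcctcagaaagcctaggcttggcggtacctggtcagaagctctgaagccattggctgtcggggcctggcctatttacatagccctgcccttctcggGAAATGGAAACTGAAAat

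Isg15 has 3 overlapping matches that begin 78, 72 and 66 bases before the start. Oas1a and Oas1g each have 2 overlapping matches, closer to the start. Overlapping matches merge into 1 run of capitals in each sequence. A match is a string in this window and is not evidence that a factor was bound there.

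Ifit3 and Ifit3b are neighbouring genes, shown next because their sequences are nearly copies. The stretches lie at chr19:34583353-34583436 and chr19:34607749-34607832, both on the plus strand, and each holds 2 matches on the opposite strand, so the capitals read as the reverse complement of the motif.
Ifit3: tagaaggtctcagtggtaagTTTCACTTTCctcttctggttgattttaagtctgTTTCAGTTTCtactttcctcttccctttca
Ifit3b: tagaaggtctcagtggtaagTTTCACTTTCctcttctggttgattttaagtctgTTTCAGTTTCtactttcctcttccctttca

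These 2 stretches of 84 bases are identical, and the longest identical run of both promoter windows is 169 of 300 bases. Oas1a and Oas1g share a run of 73 bases. Only promoter windows were compared here, not transcripts. How the authors' counting split reads between similar transcripts is not given in the sources used here. If the transcripts of either pair are also alike, the single values of Ifit3, Ifit3b, Oas1a and Oas1g are less certain than those of other genes.

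Across the 36 members the level was lowest in the VHH-PD-1-Fc libraries and highest in the Ctrl libraries. The mean of log2(FPKM + 1) over the members was 3.77, 3.74 and 3.77 in VHH-OD-PD-1-Fc libraries, 3.10, 3.17 and 3.15 in VHH-PD-1-Fc libraries, 3.96, 3.90 and 3.71 in VHH-OD-Fc libraries and 4.51, 4.00 and 4.07 in Ctrl libraries. On this mean all VHH-PD-1-Fc libraries lie under every other library, and Ctrl replicate 1 lies far above the rest. Ctrl replicate 1 was the highest of the 12 libraries for 27 of the 36 members. By group means, VHH-PD-1-Fc was lowest for 33 members, Ctrl was highest for 30 and VHH-OD-PD-1-Fc was highest for 6. The commonest order, held by 19 members, was Ctrl, VHH-OD-Fc, VHH-OD-PD-1-Fc and VHH-PD-1-Fc from high to low. In whole tumours, fewer cells of a type and less RNA per cell cannot be told apart.

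**Figure D1:**
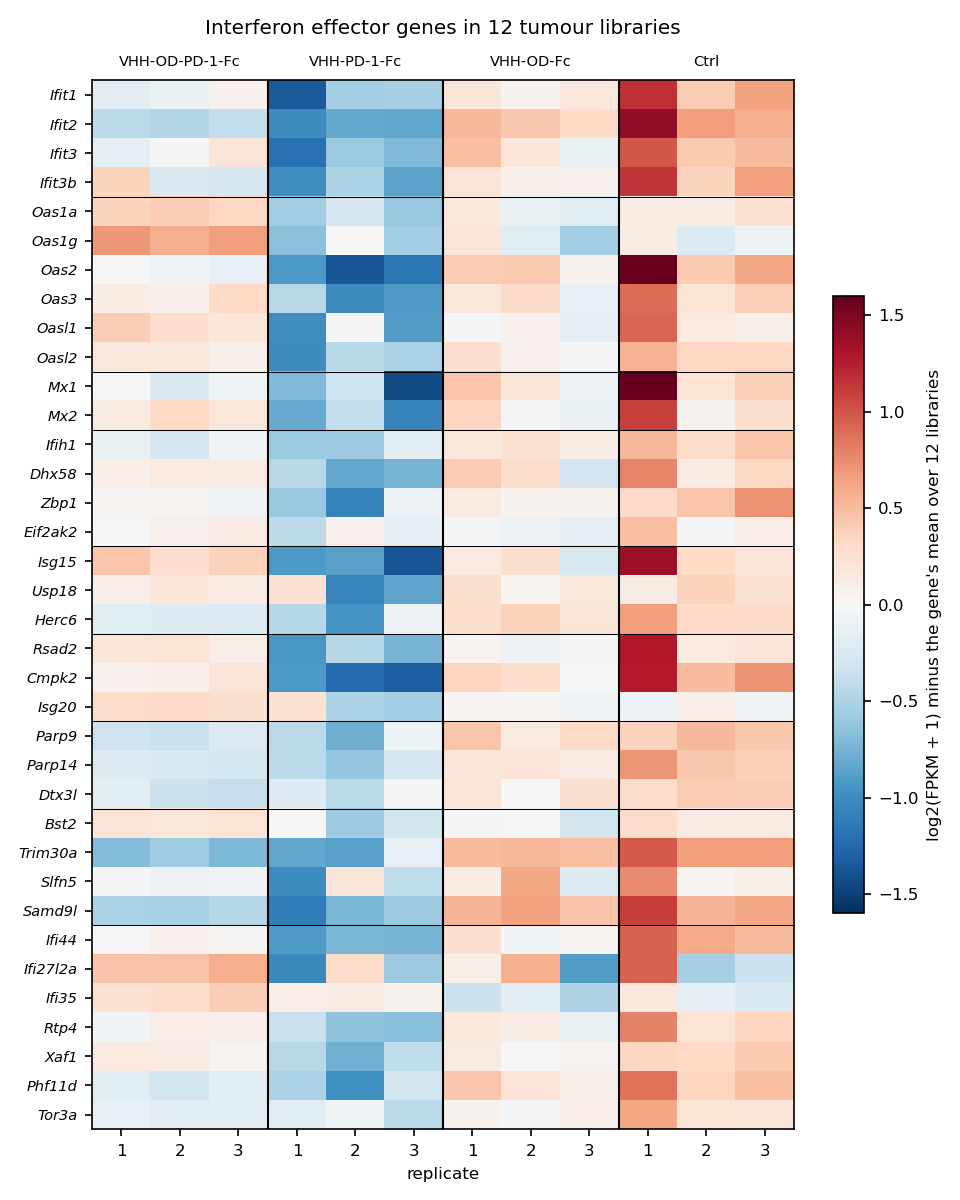
Heat map of the 36 members (rows, in role groups split by thin lines) in the 12 libraries (columns, by group and replicate number), coloured by log2(FPKM + 1) minus the gene's mean over the 12 libraries. The VHH-PD-1-Fc columns are mostly blue, the Ctrl columns mostly red with replicate 1 the darkest, and the VHH-OD-PD-1-Fc columns look alike and lie between them for most rows.

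The first comparison asks what the OD arm adds beside the PD-1 arm, and both of its groups lie on the same side of the general split. In VHH-OD-PD-1-Fc libraries 7 of the 36 members rose relative to VHH-PD-1-Fc libraries and none fell (limma, Benjamini-Hochberg adjusted p under 0.05 over all 14306 genes tested), where 0.538% of all genes were called higher and 0.301% lower. The 7 are the oligoadenylate synthetase genes Oas1a, Oas1g and Oasl2, the ubiquitin-like modifier Isg15, the nucleotide kinase Cmpk2, and Ifi44 and Xaf1. The sign was positive for 34 members, and the median log2 difference was 0.67 over the members against 0.04 over all genes. In 27 members the lowest VHH-OD-PD-1-Fc library lay above the highest VHH-PD-1-Fc library, which was so for 13.8% of all genes. At an unadjusted p under 0.05, 23 members passed, against 15.5% of all genes. None of the 7 calls remained with VHH-OD-PD-1-Fc entered as 1 sample or when any 1 of these libraries was left out, while the median difference kept its size (0.64 to 0.67). The count was 12 without VHH-PD-1-Fc replicate 1, 13 without Ctrl replicate 1, and 4 when VHH-OD-Fc replicate 2, Ctrl replicate 2 or Ctrl replicate 3 was left out. Over all genes 77 were called higher, and 8, 9 and 7 without VHH-OD-PD-1-Fc replicate 1, 2 and 3. That number was 316 without VHH-PD-1-Fc replicate 1, 123 without Ctrl replicate 1, and 26, 35 and 27 in the last cases.

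Summed markers of some other cells also differed between these groups. The summed FPKM of 6 neutrophil markers was 1983 to 2044 in VHH-OD-PD-1-Fc libraries and 431 to 1297 in VHH-PD-1-Fc libraries, with 0 of the 6 markers called. The sum of 5 skeletal muscle markers was 172 to 174 in VHH-OD-PD-1-Fc libraries and 5.37 to 30.6 in VHH-PD-1-Fc libraries, with 0 of 5 called. The sum of 6 fibroblast markers was 446 to 452 in VHH-OD-PD-1-Fc libraries and 187 to 370.1 in VHH-PD-1-Fc libraries, again with 0 of 6 called. The sum of 5 NK-cell markers was 3.498 to 3.94 FPKM in VHH-OD-PD-1-Fc libraries and 0.777 to 2.17 in VHH-PD-1-Fc libraries, with Klrb1c and Klre1 under 1 FPKM in all libraries and 0 of 1 tested called. That of 6 markers of conventional dendritic cells was 10.6 to 11.8 FPKM in VHH-OD-PD-1-Fc libraries and 6.27 to 8.41 in VHH-PD-1-Fc libraries. Flt3, Xcr1 and Clec9a were under 1 FPKM in all libraries, and 0 of 2 tested were called. Of these 2, Itgax was higher in VHH-OD-PD-1-Fc libraries and Zbtb46 was lower. Monocyte and B-cell markers were lower in sum, but single monocyte markers went both ways. Fn1 and Chil3 were lower in VHH-OD-PD-1-Fc libraries, and Plac8, Ly6c2 and Ccr2 were higher. The mean of log2(FPKM + 1) over the monocyte markers overlapped, at 3.69 to 3.75 in VHH-OD-PD-1-Fc libraries and 3.33 to 3.93 in VHH-PD-1-Fc libraries. The 5 monocyte markers summed to 278 to 282 FPKM in VHH-OD-PD-1-Fc libraries and 353 to 430.3 in VHH-PD-1-Fc libraries, with 0 of 5 called, and the 4 B-cell markers summed to 0.343 to 0.848 FPKM in VHH-OD-PD-1-Fc libraries and 1.31 to 4.97 in VHH-PD-1-Fc libraries, with 0 of 2 tested called. None of these 7 sums overlaps between the 2 groups. The part of these cells in the differences was not tested. For plasmacytoid dendritic cells, specialised interferon producers, the sum of 6 markers was 20.1 to 22.4 FPKM in VHH-OD-PD-1-Fc libraries and 15.2 to 36.1 in VHH-PD-1-Fc libraries, with overlap and 0 of 3 tested called. Tcf4 and Cox6a2 made up nearly all of it. The largest sum of the 12 libraries, 71.8 FPKM, was in VHH-OD-Fc replicate 2, which also had the largest skeletal muscle sum (1987 FPKM). The next largest, 36.1 in VHH-PD-1-Fc replicate 3, came with the lowest skeletal muscle sum (5.37 FPKM). Whether this sum reflects plasmacytoid dendritic cells or muscle was not tested. Ccr9 stayed under 1 FPKM in all 12 libraries, and Siglech was 0.079, 0.118 and 0.129 FPKM in VHH-OD-PD-1-Fc libraries, 0.103, 0.081 and 0.006 in VHH-PD-1-Fc libraries, 0.226, 0.258 and 0.019 in VHH-OD-Fc libraries and 1.72, 0.116 and 0.569 in Ctrl libraries.

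The OAS genes make short oligoadenylates that activate RNase L, which cuts viral and cellular RNA. Oas1a had 29.8, 30.7 and 29.2 FPKM in VHH-OD-PD-1-Fc libraries, 15.4, 19.03 and 14.9 in VHH-PD-1-Fc libraries, 26.03, 21.3 and 20.05 in VHH-OD-Fc libraries and 25.2, 25.1 and 27.4 in Ctrl libraries. The VHH-OD-PD-1-Fc libraries are the highest of the 12 and the VHH-PD-1-Fc libraries the lowest, with no overlap, and the log2 difference between these groups was 0.83 ± 0.11 (SE, adjusted p = 0.015). Oas1g had 19.3, 17.8 and 19.1 FPKM in VHH-OD-PD-1-Fc libraries, 6.91, 11.5 and 7.599 in VHH-PD-1-Fc libraries, 13.4, 10.03 and 7.64 in VHH-OD-Fc libraries and 12.7, 9.81 and 10.9 in Ctrl libraries. Only the VHH-OD-PD-1-Fc libraries stand apart, the other 3 groups overlap, and the difference from VHH-PD-1-Fc libraries was 1.06 ± 0.20 (SE, adjusted p = 0.042). Oasl2, a synthetase-like relative, had 26.8, 26.6 and 25.04 FPKM in VHH-OD-PD-1-Fc libraries, 11.2, 16.99 and 16.3 in VHH-PD-1-Fc libraries, 28.3, 24.8 and 23.3 in VHH-OD-Fc libraries and 35.2, 29.9 and 29.8 in Ctrl libraries. Its VHH-PD-1-Fc libraries lie under all others, the VHH-OD-PD-1-Fc and VHH-OD-Fc libraries overlap, and the difference between VHH-OD-PD-1-Fc and VHH-PD-1-Fc libraries was 0.80 ± 0.14 (SE, adjusted p = 0.039). The remaining OAS members, Oas2, Oas3 and Oasl1, differed by 0.92 to 1.08 in the same direction without passing the test, although the libraries of the 2 groups do not overlap for any of the 6 OAS genes. Oas3 came nearest to the threshold (adjusted p = 0.054).

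Isg15 encodes the modifier that is conjugated to viral and host proteins, Herc6 is the main mouse ligase for it, and Usp18 removes it and restrains the interferon receptor. Isg15 had 97.1, 86.2 and 92.3 FPKM in VHH-OD-PD-1-Fc libraries, 37.1, 38.6 and 26.6 in VHH-PD-1-Fc libraries, 79.5, 85.5 and 60.01 in VHH-OD-Fc libraries and 186, 89.3 and 82.4 in Ctrl libraries. The VHH-PD-1-Fc libraries are lowest, the VHH-OD-PD-1-Fc libraries lie within the range of the Ctrl libraries, and Ctrl replicate 1 is the highest of the 12. Its difference between VHH-OD-PD-1-Fc and VHH-PD-1-Fc libraries, 1.42 ± 0.27 (SE, adjusted p = 0.042), was the largest of any member. Usp18 had 15.3, 16.3 and 15.6 FPKM in VHH-OD-PD-1-Fc libraries, 16.8, 6.27 and 7.47 in VHH-PD-1-Fc libraries, 17.1, 14.5 and 16.2 in VHH-OD-Fc libraries and 15.6, 18.6 and 17.00 in Ctrl libraries. VHH-PD-1-Fc replicate 1 lies above all VHH-OD-PD-1-Fc libraries and the other two lie far under them, so these groups overlap, and their difference was 0.69 ± 0.26 (SE, adjusted p = 0.22). Herc6 differed by 0.30 ± 0.18 (SE, adjusted p = 0.48).

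Among the enzymes that act on nucleotides and nucleic acid, Cmpk2 is a mitochondrial nucleotide kinase, Rsad2 (viperin) makes a chain-terminating nucleotide and Isg20 is an RNA exonuclease. Cmpk2 had 4.72, 4.79 and 5.32 FPKM in VHH-OD-PD-1-Fc libraries, 1.898, 1.34 and 1.19 in VHH-PD-1-Fc libraries, 5.91, 5.64 and 4.495 in VHH-OD-Fc libraries and 12.2, 6.67 and 7.996 in Ctrl libraries. Every VHH-OD-PD-1-Fc library exceeds every VHH-PD-1-Fc library, and the log2 difference was 1.27 ± 0.18 (SE, adjusted p = 0.019). Rsad2 had 5.84, 5.93 and 5.38 FPKM in VHH-OD-PD-1-Fc libraries, 2.12, 3.33 and 2.54 in VHH-PD-1-Fc libraries, 5.16, 4.62 and 5.02 in VHH-OD-Fc libraries and 13.5, 5.65 and 5.88 in Ctrl libraries. The VHH-OD-PD-1-Fc and VHH-PD-1-Fc libraries do not overlap here either, but their difference did not pass the test, at 0.89 ± 0.25 (SE, adjusted p = 0.12). Isg20 had 78.6, 79.4 and 77.01 FPKM in VHH-OD-PD-1-Fc libraries, 75.9, 44.8 and 43.2 in VHH-PD-1-Fc libraries, 66.4, 65.6 and 61.5 in VHH-OD-Fc libraries and 60.3, 69.2 and 61.8 in Ctrl libraries. VHH-PD-1-Fc replicate 1 is close to the VHH-OD-PD-1-Fc libraries and the other two are far lower, and the difference was 0.56 ± 0.17 (SE, adjusted p = 0.16).

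Ifi44, a GTP-binding-like protein of the interferon response, had 12.2, 12.9 and 12.4 FPKM in VHH-OD-PD-1-Fc libraries, 6.04, 6.93 and 6.93 in VHH-PD-1-Fc libraries, 14.8, 11.8 and 12.5 in VHH-OD-Fc libraries and 24.5, 19.1 and 17.6 in Ctrl libraries. The order is Ctrl over VHH-OD-PD-1-Fc over VHH-PD-1-Fc with no overlap among these 3 groups, and the difference between VHH-OD-PD-1-Fc and VHH-PD-1-Fc libraries was 0.82 ± 0.12 (SE, adjusted p = 0.022). Xaf1, which binds the apoptosis inhibitor XIAP, had 12.3, 12.1 and 11.3 FPKM in VHH-OD-PD-1-Fc libraries, 7.75, 6.01 and 8.03 in VHH-PD-1-Fc libraries, 12.2, 11.00 and 11.3 in VHH-OD-Fc libraries and 14.2, 13.9 and 14.96 in Ctrl libraries. The VHH-OD-PD-1-Fc libraries lie above all VHH-PD-1-Fc libraries and under all Ctrl libraries, and the difference from VHH-PD-1-Fc libraries was 0.65 ± 0.10 (SE, adjusted p = 0.024). Ifi27l2a, a small mitochondrial membrane protein, was among the most abundant members and the most variable. It had 147, 147 and 159.96 FPKM in VHH-OD-PD-1-Fc libraries, 51.6, 131 and 70.9 in VHH-PD-1-Fc libraries, 113, 159 and 56.8 in VHH-OD-Fc libraries and 205, 73.5 and 83.99 in Ctrl libraries. Single libraries of VHH-PD-1-Fc, VHH-OD-Fc and Ctrl differ more than 2-fold within their groups, and no comparison called this gene.

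**Figure D2:**
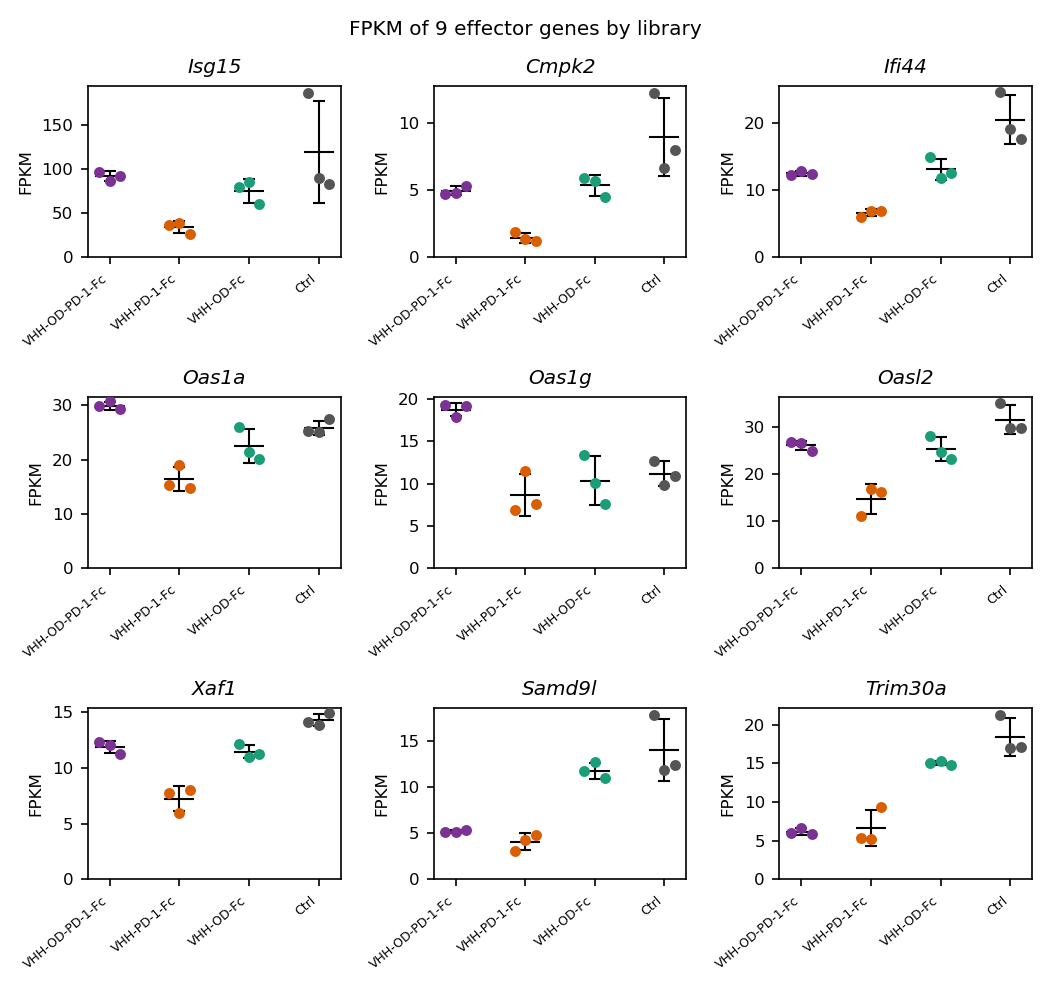
FPKM (vertical axes, linear and from 0) of 9 members in each library, with 1 point per library and the group mean ± SD as bars, for VHH-OD-PD-1-Fc, VHH-PD-1-Fc, VHH-OD-Fc and Ctrl from left to right. In the 7 genes from Isg15 to Xaf1 the VHH-OD-PD-1-Fc points all lie above the VHH-PD-1-Fc points, and in Samd9l and Trim30a both of these groups lie under the other groups.

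Only 2 members had a negative sign between VHH-OD-PD-1-Fc and VHH-PD-1-Fc libraries, and neither was called. Dtx3l, a ubiquitin ligase that works with Parp9, had 11.8, 10.3 and 10.1 FPKM in VHH-OD-PD-1-Fc libraries, 11.4, 9.61 and 13.04 in VHH-PD-1-Fc libraries, 15.6, 13.4 and 16.1 in VHH-OD-Fc libraries and 16.7, 17.95 and 17.8 in Ctrl libraries. Trim30a, a mouse TRIM protein that restrains inflammatory signalling, had 5.98, 6.64 and 5.87 FPKM in VHH-OD-PD-1-Fc libraries, 5.397, 5.19 and 9.39 in VHH-PD-1-Fc libraries, 15.1, 15.3 and 14.8 in VHH-OD-Fc libraries and 21.3, 16.99 and 17.1 in Ctrl libraries. For both genes the libraries of the 2 groups with the PD-1 arm overlap and lie under all libraries without the arm. The differences between VHH-OD-PD-1-Fc and VHH-PD-1-Fc libraries were -0.07 ± 0.11 (SE, adjusted p = 0.84) for Dtx3l and -0.06 ± 0.17 (SE, adjusted p = 0.92) for Trim30a. The ADP-ribosylation genes as a group (Parp9, Parp14 and Dtx3l) differed least here, between -0.07 and 0.19, while the 6 OAS genes differed by 0.80 to 1.08 and the 4 IFIT genes by 0.46 to 0.84.

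The second comparison asks what the OD arm does without the PD-1 arm. Between VHH-OD-Fc and Ctrl libraries no member was called, and no gene of the 14306 was called either (0%). At an unadjusted p under 0.05, 11 of 36 members passed, all lower in VHH-OD-Fc libraries, against 3.14% of all genes. The sign was negative for 35 members, with a median log2 difference of -0.30 against -0.02 over all genes, and 17 members were lower in every VHH-OD-Fc library than in every Ctrl library, against 6.7% of all genes. Ifi44 had the smallest p, and differed by -0.60 ± 0.12 (SE, adjusted p = 1). Parp14, a macrodomain ADP-ribosyltransferase, had 8.85, 8.69 and 8.42 FPKM in VHH-OD-PD-1-Fc libraries, 7.61, 6.48 and 8.41 in VHH-PD-1-Fc libraries, 12.2, 12.3 and 11.6 in VHH-OD-Fc libraries and 17.8, 14.4 and 13.9 in Ctrl libraries. Its VHH-OD-Fc and Ctrl libraries do not overlap, and the difference was -0.33 ± 0.11 (SE, adjusted p = 1). Cmpk2 differed by -0.62 ± 0.18 (SE, adjusted p = 1), with every VHH-OD-Fc library under every Ctrl library. Isg20 was the only member of positive sign, at 0.02. Without Ctrl replicate 1 the median was -0.19, and no member was called under any of the alternatives tried. Over all genes, library quality weights called 4 genes lower and none higher, dropping the filter called 1 in each direction, and leaving out VHH-OD-Fc replicate 3 called 1 higher. T-cell markers were lower in sum as well: the sum of 7 markers was 8.19 to 14.3 FPKM in VHH-OD-Fc libraries and 15.4 to 31.1 in Ctrl libraries, with 0 of the 6 that were tested called. The sum of monocyte markers was 484 to 724 FPKM in VHH-OD-Fc libraries and 387 to 479 in Ctrl libraries, with 0 of 5 called. Single monocyte markers went both ways. Fn1 differed by 0.38 and Chil3 by 0.36, but Ly6c2 by -0.86, Ccr2 by -0.37 and Plac8 by -0.26. The part of either in the members' difference was not tested.

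Whether the OD arm has a different effect beside the PD-1 arm was tested as the difference of the first 2 comparisons. It was positive for all 36 members, with a median of 1.01 on the log2 scale against 0.06 over all genes. It passed the test for 4 of 36 members, against 0.0909% of genes called higher and 0.021% called lower. The 4 were Ifi44 at 1.42 ± 0.18 (SE, adjusted p = 0.013), Cmpk2 at 1.89 ± 0.26 (SE, adjusted p = 0.022), Xaf1 at 0.95 ± 0.15 (SE, adjusted p = 0.041) and Oas1a at 1.04 ± 0.16 (SE, adjusted p = 0.046). Isg15 had the largest value but a wide error, 1.99 ± 0.38 (SE, adjusted p = 0.097). The count was 0 with VHH-OD-PD-1-Fc as 1 sample, without any 1 of its libraries, or when VHH-OD-Fc replicate 3 was left out. It was 1 or 2 without VHH-OD-Fc replicate 1 or 2 or without any 1 Ctrl library, and 9 and 7 without VHH-PD-1-Fc replicate 1 and 2. Over all genes 13 were called higher, and 3 without any 1 VHH-OD-PD-1-Fc library. That number was 56 and 54 without VHH-PD-1-Fc replicate 1 and 2. The doses in mg/kg differ between the constructs, so the design is not a strict factorial.

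**Figure D3:**
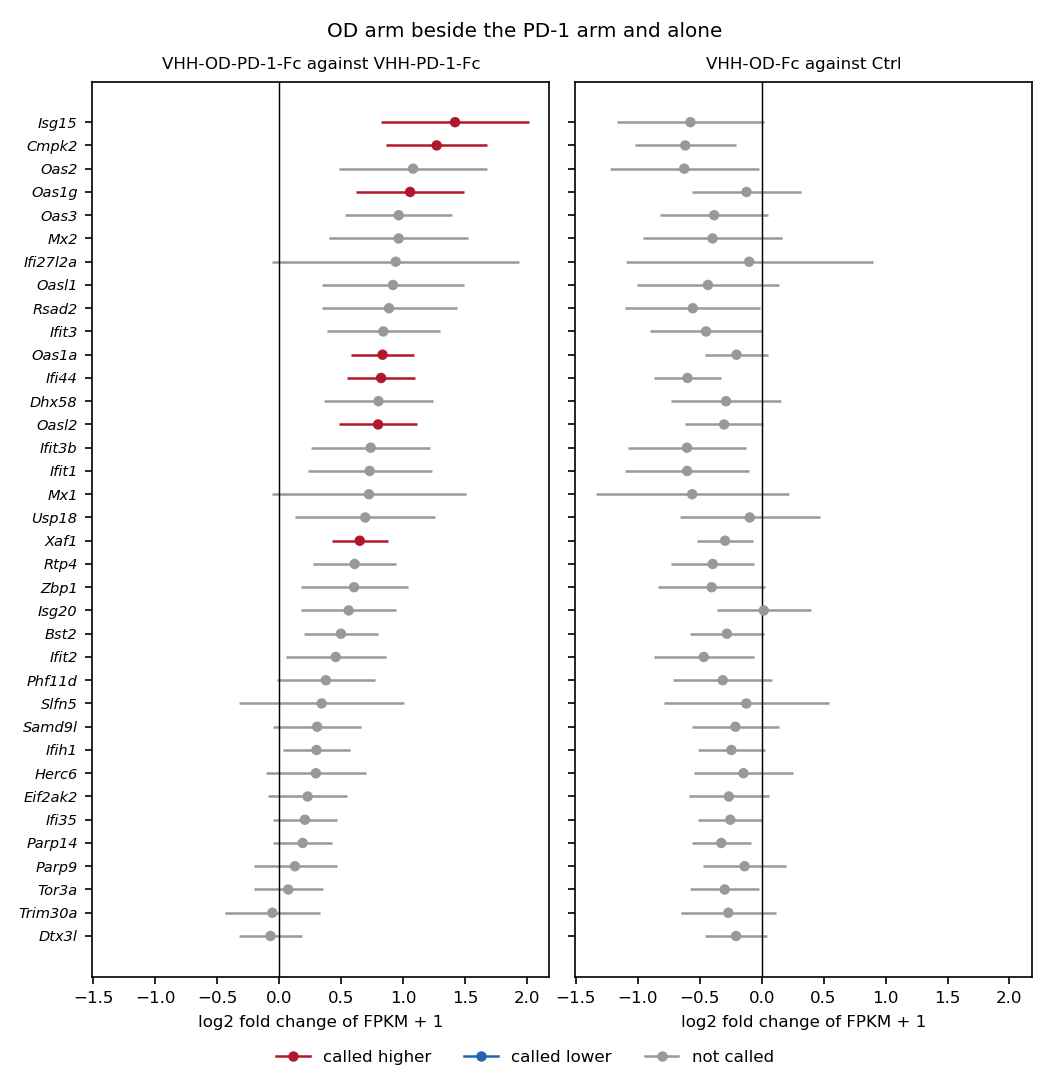
Log2 fold change of FPKM + 1 (horizontal axes, same scale) with its 95% confidence interval for the 36 members, for VHH-OD-PD-1-Fc against VHH-PD-1-Fc libraries (left) and VHH-OD-Fc against Ctrl libraries (right), sorted by the left panel. Red marks the 7 members called higher. Most points lie right of 0 on the left and 35 lie left of 0 on the right.

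The largest differences were between the PD-1 arm alone and Ctrl. In VHH-PD-1-Fc libraries 30 of the 36 members fell relative to Ctrl libraries and none rose, and the median log2 difference was -1.04. Over all genes 32.3% were called lower, 14.6% were called higher and the median was -0.19. In 29 members every VHH-PD-1-Fc library lay under every Ctrl library, against 33.7% of all genes. All 4 IFIT genes fell, as did 5 of 6 OAS genes, both Mx genes, all 3 genes of the ISG15 system and all 3 ADP-ribosylation genes. Of the 30 falls, 25 kept their call under every alternative in which they were tested, and that of Usp18 was the least stable, lost without VHH-PD-1-Fc replicate 2 or 3 and without Ctrl replicate 2 or 3. The members not called were Oas1g, Eif2ak2, Isg20, Slfn5, Ifi27l2a and Ifi35. This comparison crosses the general split between libraries, and no library allows it to be made on 1 side. The balance of all calls depends on the scaling: 2092 genes were higher and 4615 lower with FPKM as deposited, against 3145 higher and 2879 lower with libraries scaled by the median of ratios, where 28 members fell, 1 rose (Ifi35) and their median was -0.84.

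The IFIT proteins bind viral RNA and block its translation. Ifit3 had 9.37, 10.3 and 12.2 FPKM in VHH-OD-PD-1-Fc libraries, 4.03, 6.598 and 6.04 in VHH-PD-1-Fc libraries, 14.95, 12.1 and 9.58 in VHH-OD-Fc libraries and 21.8, 14.4 and 15.1 in Ctrl libraries. Ifit1 had 4.28, 4.58 and 5.29 FPKM in VHH-OD-PD-1-Fc libraries, 1.37, 3.13 and 3.15 in VHH-PD-1-Fc libraries, 5.88, 5.24 and 5.74 in VHH-OD-Fc libraries and 12.5, 6.98 and 8.38 in Ctrl libraries. For both genes the VHH-PD-1-Fc libraries are the lowest, the Ctrl libraries with replicate 1 foremost are high, and the VHH-OD-PD-1-Fc libraries lie under every Ctrl library. The differences between VHH-PD-1-Fc and Ctrl libraries were -1.46 ± 0.21 (SE, adjusted p = 0.00039) for Ifit3 and -1.55 ± 0.23 (SE, adjusted p = 0.00049) for Ifit1. Ifit2 had 2.71, 2.600 and 2.79 FPKM in VHH-OD-PD-1-Fc libraries, 1.47, 1.83 and 1.81 in VHH-PD-1-Fc libraries, 6.13, 5.71 and 5.19 in VHH-OD-Fc libraries and 12.3, 6.89 and 6.44 in Ctrl libraries. Here the VHH-OD-PD-1-Fc libraries too lie under all VHH-OD-Fc and Ctrl libraries, and the difference between VHH-PD-1-Fc and Ctrl libraries was -1.77 ± 0.18 (SE, adjusted p = 9.4e-05). Ifit3b, the copy of Ifit3, was the faintest IFIT gene, and its lowest library held an estimated 34.9 fragments.

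The Mx proteins are dynamin-like GTPases that trap viral nucleocapsids, and many inbred mouse strains carry defective Mx1 alleles. Mx1 had 3.64, 2.99 and 3.47 FPKM in VHH-OD-PD-1-Fc libraries, 1.86, 2.71 and 0.723 in VHH-PD-1-Fc libraries, 5.36, 4.35 and 3.35 in VHH-OD-Fc libraries and 13.4, 4.43 and 5.08 in Ctrl libraries. Mx2 had 3.08, 3.61 and 3.21 FPKM in VHH-OD-PD-1-Fc libraries, 1.13, 1.83 and 0.771 in VHH-PD-1-Fc libraries, 3.69, 2.66 and 2.44 in VHH-OD-Fc libraries and 6.91, 2.84 and 3.43 in Ctrl libraries. In both genes the VHH-PD-1-Fc libraries lie under all Ctrl libraries, and Ctrl replicate 1 is over 2-fold above the other Ctrl libraries. The differences between VHH-PD-1-Fc and Ctrl libraries were -1.57 ± 0.35 (SE, adjusted p = 0.0047) for Mx1 and -1.22 ± 0.25 (SE, adjusted p = 0.0031) for Mx2.

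Among the nucleic acid sensors, Ifih1 (MDA5) and Dhx58 (LGP2) recognise double-stranded RNA, Zbp1 binds Z-form nucleic acid and Eif2ak2 (PKR) stops translation. Zbp1 had 34.2, 34.6 and 32.4 FPKM in VHH-OD-PD-1-Fc libraries, 21.6, 15.4 and 31.2 in VHH-PD-1-Fc libraries, 37.1, 34.9 and 34.7 in VHH-OD-Fc libraries and 41.7, 45.97 and 55.5 in Ctrl libraries. VHH-PD-1-Fc libraries lie under all Ctrl libraries, and the difference was -1.08 ± 0.20 (SE, adjusted p = 0.0014). Eif2ak2 had 11.2, 11.8 and 12.4 FPKM in VHH-OD-PD-1-Fc libraries, 8.14, 11.8 and 10.01 in VHH-PD-1-Fc libraries, 10.99, 10.6 and 10.1 in VHH-OD-Fc libraries and 16.1, 10.9 and 12.1 in Ctrl libraries. Its VHH-PD-1-Fc and Ctrl libraries overlap, and the difference was -0.35 ± 0.15 (SE, adjusted p = 0.069). Ifih1 and Dhx58 fell by 0.87 and 1.09 on the log2 scale. Rigi, counted apart, had 3.76, 2.53 and 4.03 FPKM in VHH-PD-1-Fc libraries, against 9.66, 7.66 and 7.22 in Ctrl libraries, with no overlap and a difference of -1.06 ± 0.14 (SE, adjusted p = 0.00027).

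Samd9l, a restriction factor that halts translation, had 5.15, 5.09 and 5.41 FPKM in VHH-OD-PD-1-Fc libraries, 3.08, 4.29 and 4.87 in VHH-PD-1-Fc libraries, 11.7, 12.7 and 10.98 in VHH-OD-Fc libraries and 17.8, 11.8 and 12.4 in Ctrl libraries. All 6 libraries with the PD-1 arm lie under all 6 without it, and VHH-PD-1-Fc differed from Ctrl libraries by -1.56 ± 0.16 (SE, adjusted p = 9.0e-05). Trim30a, with values given above, differed by -1.38 ± 0.17 (SE, adjusted p = 0.00022). Bst2 (tetherin), which holds budding virus at the cell surface, was the most abundant member, with 316, 312 and 319 FPKM in VHH-OD-PD-1-Fc libraries, 272, 183 and 223 in VHH-PD-1-Fc libraries, 276, 272 and 224 in VHH-OD-Fc libraries and 335, 299.6 and 301 in Ctrl libraries. The VHH-OD-PD-1-Fc libraries fall within the range of the Ctrl libraries and the VHH-PD-1-Fc libraries are under both, with a difference between VHH-PD-1-Fc and Ctrl libraries of -0.48 ± 0.14 (SE, adjusted p = 0.015). Parp9, the partner of Dtx3l, had 15.5, 15.2 and 16.8 FPKM in VHH-OD-PD-1-Fc libraries, 14.4, 11.1 and 18.6 in VHH-PD-1-Fc libraries, 27.2, 21.9 and 24.9 in VHH-OD-Fc libraries and 25.8, 28.7 and 27.1 in Ctrl libraries. The 6 libraries with the PD-1 arm again lie under the 6 without it, and VHH-PD-1-Fc differed from Ctrl libraries by -0.87 ± 0.15 (SE, adjusted p = 0.0012).

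The Isg15 and Cmpk2 values given above differed between VHH-PD-1-Fc and Ctrl libraries by -1.69 ± 0.27 (SE, adjusted p = 0.00073) and -1.98 ± 0.18 (SE, adjusted p = 5.9e-05). Ifi44 had the smallest p of any member in this comparison, with -1.48 ± 0.12 (SE, adjusted p = 3.8e-05). Oas2 had the largest difference, at -2.06 ± 0.27 (SE, adjusted p = 0.00027). Ifi35, a leucine-zipper protein induced by interferon, was the only member of positive sign. It had 38.7, 39.9 and 43.3 FPKM in VHH-OD-PD-1-Fc libraries, 35.1, 35.8 and 34.1 in VHH-PD-1-Fc libraries, 25.6, 28.9 and 23.2 in VHH-OD-Fc libraries and 36.9, 29.4 and 27.3 in Ctrl libraries. Its VHH-PD-1-Fc libraries lie within the range of the Ctrl libraries, and the difference was 0.17 ± 0.12 (SE, adjusted p = 0.24). It was -0.05 with values rescaled to TPM.

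Between VHH-OD-PD-1-Fc and Ctrl libraries the members divided. Of the 36, 16 fell and 2 rose, with a median log2 difference of -0.44. Over all genes 27.1% were called lower, 15.1% were called higher and the median was -0.14. In 22 members every VHH-OD-PD-1-Fc library lay under every Ctrl library, against 41.4% of all genes, and 16 of 36 called lower is to be read against the 27.1%. Of the 30 members that fell in VHH-PD-1-Fc libraries, 16 also fell in VHH-OD-PD-1-Fc libraries and 14 were not called there. These 2 comparisons share the Ctrl libraries. The 16 hold all IFIT genes (Ifit2 -1.32 ± 0.18 (SE, adjusted p = 0.00045)), all 3 ADP-ribosylation genes (Parp14 -0.76 ± 0.11 (SE, adjusted p = 0.00051)), Trim30a (-1.43) and Samd9l (-1.25). The others were Oas2, Ifih1, Herc6, Cmpk2, Ifi44, Phf11d and Tor3a, at -0.98 to -0.50. The 2 that rose were Oas1g at 0.71 ± 0.20 (SE, adjusted p = 0.015) and Ifi35 at 0.38 ± 0.12 (SE, adjusted p = 0.023). With VHH-OD-PD-1-Fc as 1 sample, 4 members were called lower (Ifit2, Parp14, Samd9l and Trim30a) and none higher. Far fewer of all genes were called in that setting too, in either direction. Both rises were also lost with values rescaled to TPM and without Ctrl replicate 2, and that of Ifi35 without Ctrl replicate 3 or VHH-OD-PD-1-Fc replicate 2 or 3. The falls of Ifit1, Ifit3, Ifit3b and Herc6 were lost without Ctrl replicate 1, and those of Ifit1, Ifit3 and Ifit3b also without 1 or 2 of the VHH-OD-PD-1-Fc libraries. With libraries scaled by the median of ratios, all genes gave 3006 higher and 2593 lower calls, and the members 3 and 14.

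Among the 6 members that were both higher in VHH-OD-PD-1-Fc than in VHH-PD-1-Fc libraries and lower in VHH-PD-1-Fc than in Ctrl libraries, 2 remained lower than Ctrl in VHH-OD-PD-1-Fc libraries. Cmpk2 was -0.71 ± 0.18 (SE, adjusted p = 0.011) and Ifi44 was -0.65 ± 0.12 (SE, adjusted p = 0.0022) against Ctrl, and neither was called with VHH-OD-PD-1-Fc as 1 sample. The other 4 were Isg15 at -0.27, Oasl2 at -0.26, Xaf1 at -0.25 and Oas1a at 0.20, none of them called. Comparisons that share libraries are given side by side here and are not independent.

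**Figure D4:**
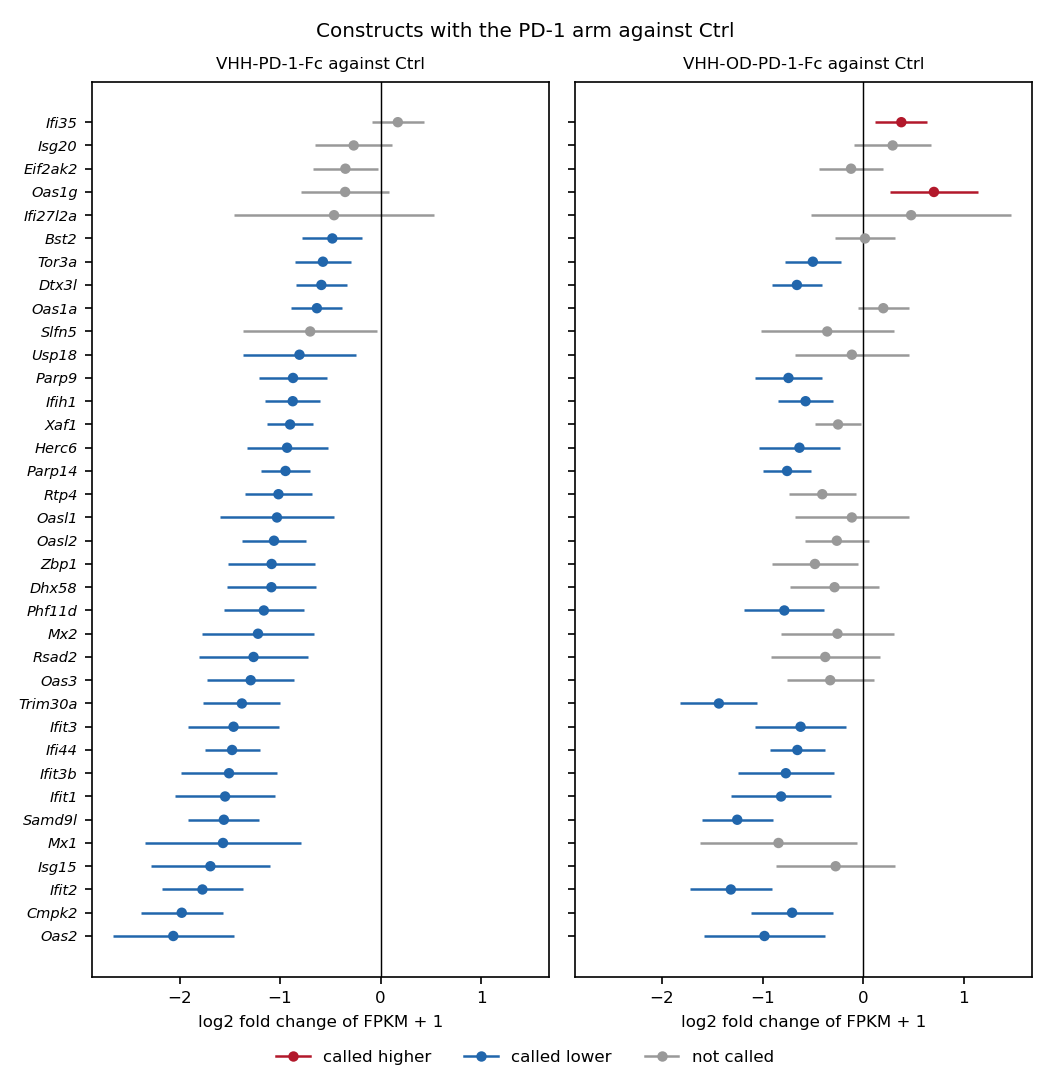
Log2 fold change of FPKM + 1 (horizontal axes, same scale) with its 95% confidence interval for the 36 members, for VHH-PD-1-Fc (left) and VHH-OD-PD-1-Fc (right) against Ctrl libraries, sorted by the left panel. Blue marks members called lower (30 left, 16 right) and red those called higher (0 left, 2 right), and both panels share the Ctrl libraries.

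Between VHH-OD-PD-1-Fc and VHH-OD-Fc libraries, which asks what the PD-1 arm adds beside the OD arm, 6 members fell and 3 rose, against 24.5% of all genes called lower and 15.4% called higher. The median log2 difference was -0.06, and that of all genes was -0.11. The members that fell were Trim30a (-1.16 ± 0.17 (SE, adjusted p = 0.00069)), Samd9l (-1.04 ± 0.16 (SE, adjusted p = 0.0008)), Ifit2 (-0.85 ± 0.18 (SE, adjusted p = 0.0047)), Parp9, Parp14 and Dtx3l. Those that rose were Oas1g (0.83 ± 0.20 (SE, adjusted p = 0.0078)), Ifi35 (0.63 ± 0.12 (SE, adjusted p = 0.002)) and Oas1a (0.40 ± 0.11 (SE, adjusted p = 0.017)). Counted over all 6 comparisons, 4 members were never called, namely Eif2ak2, Isg20, Slfn5 and Ifi27l2a. With VHH-OD-PD-1-Fc as 1 sample only the falls of Trim30a and Samd9l kept their calls. Far fewer of all genes were called lower in that setting too. With libraries scaled by the median of ratios, all genes gave 2888 higher and 2537 lower calls, the members 4 and 6, and the members' median was 0.06.

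The interferons themselves were nearly undetected. Of 12 ligand genes with a row, 11 stayed under 1 FPKM in all 12 libraries, and Ifnb1 was 0.0000, 0.0000 and 0.053 FPKM in VHH-OD-PD-1-Fc libraries and 0.026, 0.262 and 0.053 in Ctrl libraries. Ifng, the type II interferon, was the only ligand above the filter, with 0.604, 0.881 and 1.01 FPKM in VHH-OD-PD-1-Fc libraries, 0.321, 0.106 and 0.672 in VHH-PD-1-Fc libraries, 0.657, 0.598 and 0.507 in VHH-OD-Fc libraries and 1.25, 1.58 and 0.936 in Ctrl libraries. Its VHH-PD-1-Fc libraries lie under all Ctrl libraries and it fell there by 0.73 on the log2 scale relative to Ctrl (adjusted p = 0.0067). Of the receptor genes, none of 5 tested was called between VHH-OD-PD-1-Fc and VHH-PD-1-Fc libraries or between VHH-PD-1-Fc and Ctrl libraries. Ifnar1 differed by -0.05 and -0.01 in these comparisons and Ifnar2 by 0.12 and -0.35.

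Of 11 kinases and transcription factors of the pathway, 0 were called between VHH-OD-PD-1-Fc and VHH-PD-1-Fc libraries, and 6 fell in VHH-PD-1-Fc relative to Ctrl libraries, where 32.3% of all genes were called lower. Stat2, a subunit of the complex that drives these effectors, had 15.9, 15.5 and 16.4 FPKM in VHH-OD-PD-1-Fc libraries, 10.5, 7.38 and 8.29 in VHH-PD-1-Fc libraries, 20.98, 22.4 and 18.4 in VHH-OD-Fc libraries and 34.6, 20.1 and 27.01 in Ctrl libraries. The libraries of VHH-OD-PD-1-Fc, VHH-PD-1-Fc and Ctrl do not overlap, and VHH-PD-1-Fc differed from Ctrl by -1.52 ± 0.17 (SE, adjusted p = 0.00014) and VHH-OD-PD-1-Fc from VHH-PD-1-Fc by 0.81 ± 0.17 (SE, adjusted p = 0.06). Irf7, which amplifies interferon production, had 17.01, 41.3 and 12.1 FPKM in VHH-PD-1-Fc libraries, against 57.4, 32.7 and 39.5 in Ctrl libraries, and the 2 groups overlap through VHH-PD-1-Fc replicate 2, with a difference of -0.998 ± 0.37 (SE, adjusted p = 0.044) that lost its call with libraries scaled by the median of ratios (adjusted p = 0.12). Irf9 was not called in either comparison. All 6 tested brakes of the pathway fell in VHH-PD-1-Fc relative to Ctrl libraries, among them Socs1, a receptor-kinase inhibitor, at -1.22 ± 0.21 (SE, adjusted p = 0.0012). Of 10 tested genes that induce interferon, 3 fell there and none rose, a share near the 32.3% of all genes, and 1 of the 3, Trim25, was at 0.06 with the length trend removed, against -0.31 as deposited.

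Other interferon-induced genes gave a mixed picture. Of 39 tested, a list that shares Stat2, Irf7 and Irf9 among others with the factors above, 2 rose in VHH-OD-PD-1-Fc relative to VHH-PD-1-Fc libraries and none fell, with a median of 0.32. The 2 were Ifitm3 and Tdrd7. Over all genes 0.538% were called higher and 0.301% lower in this comparison, with a median of 0.04. Ifitm3, a membrane protein that blocks viral entry, had 2010.5, 2026 and 1968 FPKM in VHH-OD-PD-1-Fc libraries, 1344, 1456 and 1384 in VHH-PD-1-Fc libraries, 942, 985 and 862 in VHH-OD-Fc libraries and 1139.6, 1054 and 1012 in Ctrl libraries. Its order was VHH-OD-PD-1-Fc over VHH-PD-1-Fc over Ctrl with no overlap, with differences of 0.52 ± 0.08 (SE, adjusted p = 0.028) between VHH-OD-PD-1-Fc and VHH-PD-1-Fc and 0.38 ± 0.08 (SE, adjusted p = 0.0041) between VHH-PD-1-Fc and Ctrl libraries. The second of these lost its call when values were rescaled to TPM (0.16), and it turned to -0.14 with quantile normalization. Neither Ifitm3 nor Tdrd7 was called in the first comparison with VHH-OD-PD-1-Fc as 1 sample. Tdrd7 was 0.54 ± 0.10 (SE, adjusted p = 0.04) and -1.15 ± 0.10 (SE, adjusted p = 3.8e-05) in the same comparisons. In VHH-PD-1-Fc relative to Ctrl libraries, 26 of the 39 fell and 3 rose, against 32.3% and 14.6% of all genes.

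The guanylate-binding proteins, GTPases that respond strongly to type II interferon, were counted as a list of their own. None of 11 was called between VHH-OD-PD-1-Fc and VHH-PD-1-Fc libraries, with a median of 0.16 over a range of -0.15 to 0.45. Their summed FPKM was 200.1, 197 and 200.4 in VHH-OD-PD-1-Fc libraries, 203, 129.5 and 284 in VHH-PD-1-Fc libraries, 360.4, 323 and 362 in VHH-OD-Fc libraries and 407, 558 and 481 in Ctrl libraries. The 6 libraries with the PD-1 arm lie under the 6 without it. All 11 fell in VHH-PD-1-Fc relative to Ctrl libraries (median -1.75), and 10 of 11 fell in VHH-OD-PD-1-Fc relative to Ctrl libraries (median -1.47), or 6 of 11 with VHH-OD-PD-1-Fc as 1 sample. Over all genes 32.3% and 27.1% were called lower in these comparisons with every library counted. The second share was far smaller with VHH-OD-PD-1-Fc as 1 sample. Whether these genes differ from the 36 members in any comparison was not tested.

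Cell type markers also differed between libraries with and without the PD-1 arm, beside the fall of the members against Ctrl. The sum of 4 endothelial markers was 10.3 to 12.4 FPKM in VHH-OD-PD-1-Fc libraries, 9.46 to 10.9 in VHH-PD-1-Fc libraries and 18.7 to 25.1 in Ctrl libraries, and 3 of 3 tested fell in VHH-PD-1-Fc relative to Ctrl libraries. Of the 6 fibroblast markers 5 fell there. Of the 8 macrophage markers 1 fell (Adgre1, -0.75) and none was called higher. C1qb and C1qc were higher by 0.92 and 0.86, just short of a call (adjusted p = 0.051 and 0.052). The sum of the 8 was 1024 to 2945 FPKM in VHH-PD-1-Fc libraries and 811 to 1482 in Ctrl libraries, with overlap. The sum of 5 NK-cell markers was 0.777 to 2.17 FPKM in VHH-PD-1-Fc libraries and 3.84 to 15.9 in Ctrl libraries, and the 1 tested fell. That of 6 markers of conventional dendritic cells was 6.27 to 8.41 FPKM in VHH-PD-1-Fc libraries and 11.6 to 20.04 in Ctrl libraries, and 1 of 2 tested fell. Neither sum overlaps. Of the neutrophil markers 3 of 6 fell (Mmp9, Cxcr2 and Csf3r). So did 2 of 6 tested T-cell markers (Trac and Cd2), 2 of 5 monocyte markers and 1 of 3 tested adipocyte markers. None of these markers rose. Over all genes 32.3% were called lower and 14.6% higher in this comparison. The T-cell, monocyte, adipocyte and macrophage counts lie near or under the 32.3%. The tumour epithelium marker Krt18 rose there by 0.72 ± 0.27 (SE, adjusted p = 0.046), though its libraries overlap. Among plasmacytoid dendritic cell markers, Tcf4 rose by 1.21 ± 0.28 (SE, adjusted p = 0.0058). Ly6d of the same list fell, at -2.05 ± 0.41 (SE, adjusted p = 0.0026). Ctrl replicate 1, the library of highest effector levels, had the lowest sum of 7 tumour epithelium markers (1215 FPKM, where Ctrl replicates 3 and 2 had 2099 and 2738) and the highest sum of 7 T-cell markers of the 12 libraries (31.1 FPKM). It also had the highest sum of 5 NK-cell markers (15.9 FPKM). The part of cell composition in the members' differences was not tested.

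The motif search bears on the first comparison only as a description. The median log2 difference between VHH-OD-PD-1-Fc and VHH-PD-1-Fc libraries was 0.74 over the 13 members whose promoter window holds the motif and 0.51 over the 12 whose window does not. Of the 7 members called higher, Isg15, Oas1a and Oas1g hold it and 4 do not, and no match in this window says nothing of response elements outside it.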

How the data were processed

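Per the labels' protocols, poly(A) RNA of tumours gave paired-end reads of 150 bp. The tools fastp 0.22.0 and HISAT2 2.2.1 and a human build, GRCh38, are given per the submitters' processing notes, but the gene symbols in the table are those of mouse. The authors deposited 1 table of FPKM values with 12 library columns. How FPKM was made, and whether strand was used, is not given in the sources used here. Library groups follow the sample labels. The series' design text describes another tumour model and was not used.

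Depth was estimated from the steps between low FPKM values, and only 54.5% to 60.4% of these values came within 0.05 of a whole step, so counts were not recovered. Lengths came from GENCODE by symbol. limma 3.58.1 in R 4.3.3, with a variance trend, was fitted on log2(FPKM + 1), a scale that understates changes of low genes. The filter kept the 14306 of 41009 genes that reached 1 FPKM in 3 or more of the 12 libraries. The fit had 1 mean per group, 8 residual degrees of freedom and two-sided tests, adjusted by Benjamini-Hochberg over all genes and called under 0.05. Pipeline steps were tested on simulated data.

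The members, the lists and the alternatives were chosen with earlier results of these data known. Values per library are given for the 2 most abundant members of each role group, the 3 of smallest p in each comparison, and members of opposite sign. Values of Oas1g, given because it was called, and of Siglech, Ifnb1 and Rigi were chosen after their values were seen. Alternatives covered the pseudocount, the filter, scaling, weights, the spread, replicate handling, transcript length and leaving libraries out. A further gene of the signalling pathway, counted in its lists and not named, is not reported here on its own.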

Additional observations from a re-analysis of the deposited data

Results flagged for a closer look

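In 4 members the effect of the OD arm beside the PD-1 arm differed from its effect without that arm, by a test of the difference itself (limma, adjusted over all genes). The difference on the log2 scale was 1.42 for Ifi44, 1.89 for Cmpk2, 0.95 for Xaf1 and 1.04 for Oas1a. For each of them the OD arm went with a higher level beside the PD-1 arm and a lower mean without it. In Ifi44 the effects were 0.82 between VHH-OD-PD-1-Fc and VHH-PD-1-Fc libraries and -0.60 between VHH-OD-Fc and Ctrl libraries. In Cmpk2 they were 1.27 and -0.62, in Xaf1 0.65 and -0.30, and in Oas1a 0.83 and -0.20. None of the 4 remained called once the 3 VHH-OD-PD-1-Fc libraries entered as 1 sample, where the adjusted p was 0.54 for Ifi44, 0.65 for Cmpk2, and close to 1 for Xaf1 and Oas1a. The cause was not tested.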

How the results depend on the processing

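No called member changed sign. The called difference of Ifitm3 in VHH-PD-1-Fc against Ctrl, 0.38, became -0.14 with quantile normalization. For VHH-OD-PD-1-Fc against VHH-PD-1-Fc, the 7 calls became 4 with quantile normalization or a fit on only the 2 groups, 0 with library quality weights or with VHH-OD-PD-1-Fc as 1 sample, 2 with the replicate block, and 15 without 3 libraries together (VHH-PD-1-Fc replicate 2, VHH-OD-Fc replicate 2, Ctrl replicate 1). Leaving out 1 library at a time gave 0 to 13. Over all genes the 77 higher calls became 38 with quantile normalization, 8 with library quality weights, 19 with the replicate block and 318 without the 3 libraries. For the difference from additivity, the 4 calls became 2 with a pseudocount of 0.1, quantile normalization or the length trend removed, 1 with no filter, 0 with VHH-OD-PD-1-Fc as 1 sample or the replicate block, and 8 without the 3 libraries. Leaving out 1 library gave 0 to 9. Over all genes the 13 higher calls of this difference became 3 with the replicate block and 41 without the 3 libraries. The members' median difference from additivity, 1.01, became 0.85 with quality weights and 0.83 without the 3 libraries, and 0.85 to 1.05 leaving out 1 library.

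For VHH-PD-1-Fc against Ctrl, the median of -1.04 became -1.32 with TPM, -0.84 with median of ratios, -0.88 with quantile normalization, -0.87 with the length trend removed and -0.82 without the 3 libraries. For VHH-OD-PD-1-Fc against Ctrl, the median of -0.44 became -0.68 with TPM and -0.28 with median of ratios or the length trend removed, and the 16 lower calls became 4 with VHH-OD-PD-1-Fc as 1 sample. For VHH-OD-PD-1-Fc against VHH-OD-Fc, the 6 lower calls became 10 with TPM and 11 with quality weights or only the 2 groups. Over all 14306 genes the 3503 lower calls became 5616 with TPM, 5304 with quality weights and 4885 with only the 2 groups. The members' median of -0.06 became -0.29 with TPM, where that of all genes was -0.34. With VHH-OD-PD-1-Fc as 1 sample fewer lower calls remained in both comparisons, among the members and over all genes. Scaling moved the median of all genes in VHH-PD-1-Fc against Ctrl from -0.19 as deposited to -0.43 with TPM and -0.01 with median of ratios. The causes were not tested.

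Nothing in the labels says that the replicate numbers pair libraries across groups. Same-numbered libraries of different groups deviated with r of -0.15 to 0.18. These values were not set against differently numbered pairs, so they cannot show whether libraries are paired. With VHH-OD-PD-1-Fc as 1 sample, that lone value was assumed to vary like the other groups.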
